A study of Mus musculus with 25 samples.

Results

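Bone morphogenetic protein (BMP) signalling was described here through 10 genes, read by symbol from the 24015 gene rows of each of 2 deposited expression tables. They are the ligands Bmp2, Bmp4 and Bmp7, the type I receptor Bmpr1a, the secreted antagonist Grem1, the inhibitors Bambi and Smad6, and the transcriptional targets Id1, Id2 and Id3. All 10 were present in both tables. A further 59 genes of the pathway were counted as lists.

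RNA was sequenced from mouse basal cell carcinomas (BCC) and from ASZ001, a mouse BCC cell line that the labels call resistant. The tumours, 4 labelled sensitive and 4 labelled resistant, grew in C57BL6 mice carrying Ptch+/-, K14 Cre-ER and p53 fl/fl. Both tumour groups shared this genotype and came from mice given a Smo inhibitor by mouth, so no untreated tumour was among them. In the K14 Cre-ER allele the keratin 14 promoter, active in basal keratinocytes, drives the recombinase, so loss of p53 is directed to that compartment. ASZ001 cells received vehicle, CCG-1423 or vismodegib, with 3 libraries each, and stand for 1 cell line. CCG-1423 is an inhibitor of transcription by MRTF and SRF, and vismodegib inhibits Smo, the Hedgehog transducer. The labels state no dose, time or tumour age and do not name the inhibitor given to the mice. The series also has 8 exome samples, not analysed here.

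BMP ligands bind type I and type II serine/threonine kinase receptors, which phosphorylate Smad1, Smad5 and Smad9. These enter the nucleus with Smad4 and switch on genes such as the Id genes, whose products hold back basic helix-loop-helix transcription factors. Secreted antagonists (Grem1, Nog, Fst, Sostdc1) trap ligands, Bambi is a membrane decoy without kinase activity, and Smad6 and Smad7 block the receptor and Smad steps. Bambi, Smad6 and Smad7 are themselves induced by the pathway. In skin, BMP signalling favours keratinocyte differentiation and quiescence of hair follicle stem cells, and the follicle balances it against Hedgehog and Wnt signals.

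Promoter windows from 250 bases before to 50 bases after the start of the gene came from a set of RefSeq windows (GRCm38.p6). In that set 6 of the 10 genes were matched. Bmp2, Bmp7, Id1 and Bambi were not matched. The match left out the windows of a single chromosome, so this does not mean that RefSeq lacks these genes. The files were made on mm9, so no value was joined to these coordinates. Shown are the windows of 3 Smad targets that fell together with CCG-1423 (Id2, Id3 and Smad6) and of a ligand that rose (Bmp4). Capitals mark the Smad-binding letters GTCT or their complement AGAC, and GGCGCC, the GC-rich letters that BMP Smads are known to bind. Both strands were searched, and no marked letters overlap. Id2 lies at chr12:25096043-25096342 (minus strand), Id3 at chr4:136143572-136143871 (plus strand), Smad6 at chr9:64022010-64022309 (minus strand) and Bmp4 at chr14:46390620-46390919 (minus strand).
Id2: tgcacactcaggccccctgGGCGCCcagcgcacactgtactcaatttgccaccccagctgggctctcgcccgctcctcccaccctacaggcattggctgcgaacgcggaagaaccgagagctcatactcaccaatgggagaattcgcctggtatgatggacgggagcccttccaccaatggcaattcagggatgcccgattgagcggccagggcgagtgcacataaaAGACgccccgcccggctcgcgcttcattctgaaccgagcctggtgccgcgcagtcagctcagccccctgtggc
Id3: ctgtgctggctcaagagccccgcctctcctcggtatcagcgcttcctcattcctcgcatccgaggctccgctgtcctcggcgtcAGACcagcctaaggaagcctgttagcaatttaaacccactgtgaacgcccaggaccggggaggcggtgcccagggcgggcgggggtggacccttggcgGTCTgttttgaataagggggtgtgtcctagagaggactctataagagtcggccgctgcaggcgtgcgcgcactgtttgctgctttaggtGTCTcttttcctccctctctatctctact
Smad6: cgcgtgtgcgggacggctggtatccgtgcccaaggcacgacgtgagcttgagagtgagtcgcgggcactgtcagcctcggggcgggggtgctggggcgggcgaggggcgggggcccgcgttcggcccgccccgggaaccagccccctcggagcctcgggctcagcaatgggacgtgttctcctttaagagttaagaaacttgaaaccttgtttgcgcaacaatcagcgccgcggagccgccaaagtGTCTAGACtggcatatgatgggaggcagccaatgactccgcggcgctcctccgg
Bmp4: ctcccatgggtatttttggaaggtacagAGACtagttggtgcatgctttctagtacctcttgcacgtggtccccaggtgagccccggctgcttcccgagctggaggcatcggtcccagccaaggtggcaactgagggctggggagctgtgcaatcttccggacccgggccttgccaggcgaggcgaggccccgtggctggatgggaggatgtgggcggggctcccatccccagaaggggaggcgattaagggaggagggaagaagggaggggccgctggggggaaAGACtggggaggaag

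The Id2 window held 1 GGCGCC and 1 GTCT, the Id3 window 3 GTCT and the Bmp4 window 2 GTCT. In Smad6 the 2 copies of GTCT lie back to back as GTCTAGAC, a palindrome that was searched for after this window was seen and that occurs in 0.213% of the 32851 windows. GTCT occurs in 88.0% of all windows and GGCGCC in 11.9%, so these matches are a description of the letters only. Neither the Gli site GACCACCCA (0.253% of windows) nor a CArG box, the SRF motif (1.63%), was found in the 6 windows, which says only that these letters are not in them.

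Values are normalized read counts, that is, reads per gene divided by 1 size factor per library, set by the authors within each table. They are not divided by gene length, so levels are compared within a gene and within a table only. Tumour libraries held 8111252 to 20014426 reads at genes and cell libraries 30455530 to 44017757. Where no read was counted, up to 3 reads remain possible by counting error alone, equal to 2.09 to 4.97 normalized counts per tumour library and 2.45 to 3.40 per cell library. Fold changes are differences of log2(normalized count + 1) with the SE of the limma fit. A gene passed when its p, adjusted by Benjamini-Hochberg over all genes tested, was under 0.05. Separate animals or cultures are not stated for the replicates, so each p-value reflects the spread among the given libraries alone, part of which may be technical.

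Sensitive tumour 4 stood apart from its group. On the first principal component, which held 65.9% of the variance, it scored 66.0, beside 48.3 to 65.4 for the resistant tumours and -98.1 to -88.7 for the other 3 sensitive tumours. It had no Y-linked reads and 60771 normalized counts of Xist, as in the resistant tumours (0 reads; 61076 to 80521), whereas sensitive tumours 1 to 3 had 1391 to 2174 Y-linked reads and 1252 to 2939 of Xist. Without sensitive tumour 4, sex and response group coincide and cannot be told apart. In these values sensitive tumour 4 lies with the resistant tumours, but its label is one of response, which they do not measure. Whether the label is right was not tested, so every mean and fold change over all tumours rests on it. The tumour values are therefore given with all 8 libraries and with sensitive tumours 1 to 3 only, a comparison chosen after the data were seen. Sensitive tumour 4 was left out because of these same values, and the genes passing went from 17 to 6184. P-values against sensitive tumours 1 to 3 are therefore likely too small, and those calls serve as a description.

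None of the 10 genes passed between all resistant and all sensitive tumours with limma, where 0.113% of 15076 genes passed, 0.0332% higher and 0.0796% lower. An unadjusted p under 0.05 was reached by 2 of them, Id1 and Grem1, and by 3789 of the 15076 genes. edgeR and DESeq2 on the recovered reads also called 0 of the 10, with no adjusted p from DESeq2 for Bmp4. Over all 15076 genes edgeR called 0, and DESeq2 called 521 higher and 1117 lower. Of the 10 fold changes 9 were positive, with a median of 0.59 on the log2 scale against 0.03 over all genes tested. In none of the 10 did the groups separate without overlap, which 7.90% of all genes did. Against sensitive tumours 1 to 3, Bmp4, Grem1, Bambi and Id1 were higher in the resistant tumours and none was lower. These 4 of 10 stand beside 40.0% of 15479 genes that passed in either direction, 20.6% higher and 19.4% lower, so the share called is that of all genes. In these bulk samples fewer cells of a type and less RNA per cell cannot be told apart.

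**Figure D1:**
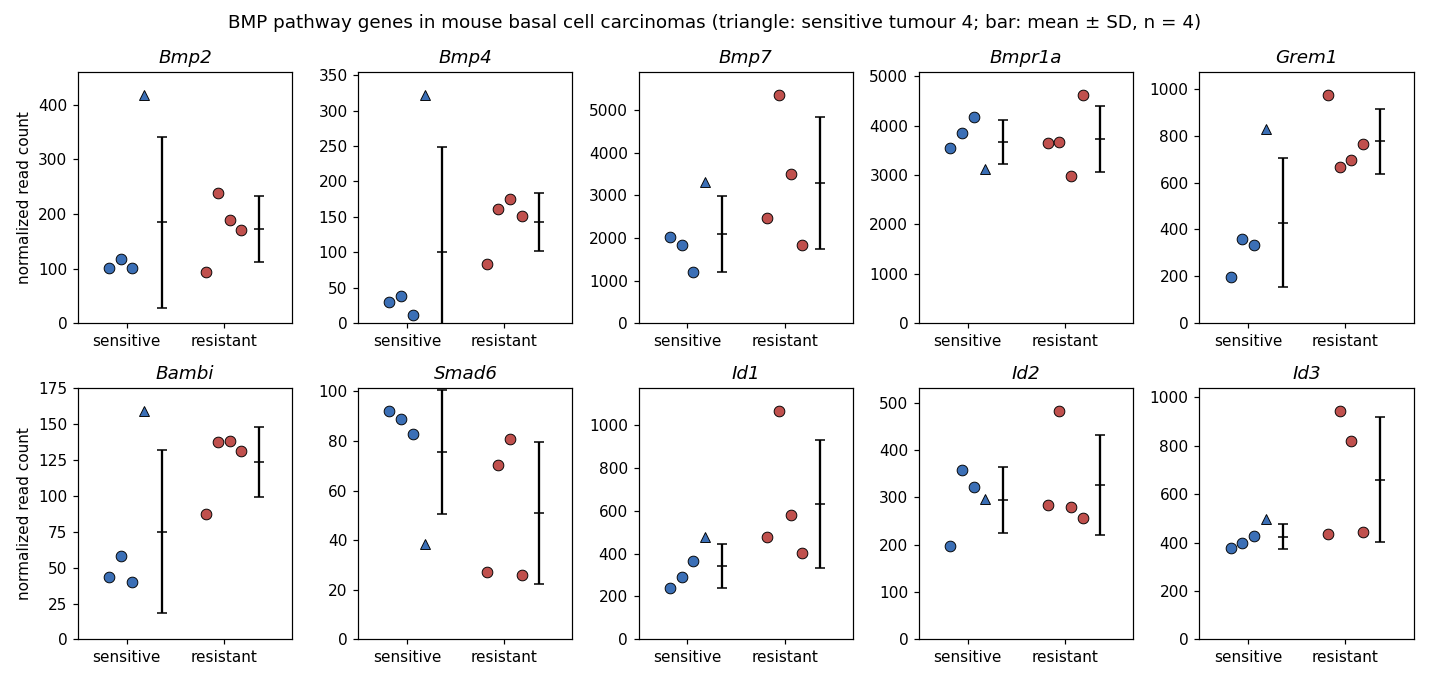
Normalized read count (y axis, linear, from 0) of each of the 10 genes in sensitive (blue) and resistant (red) tumours, 1 point per tumour, with a bar for mean ± SD over all 4 tumours of a group. The bar of Bmp4 in the sensitive tumours reaches below 0 and is cut at the axis. The triangle, sensitive tumour 4, lies above the resistant tumours for Bmp2, Bmp4 and Bambi and within their range for the other genes.

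Bmp4, a ligand made by dermal and follicular mesenchyme, was read at 29.9, 38.1, 11.6 and 322 normalized counts in sensitive tumours 1 to 4. In resistant tumours 1 to 4 it was 83.9, 161, 175 and 151. Sensitive tumour 4 held the highest value of all 8, and the other 3 sensitive tumours lay below every resistant tumour. Over all tumours the means were 100.5 ± 148 (SD, n = 4) in the sensitive and 143 ± 40.5 (SD, n = 4) in the resistant group, a log2 fold change of 1.56 ± 0.85 (SE, adjusted p = 0.27). The Bmp4 value over all tumours was 0.49 with edgeR, 0.50 with DESeq2 and 0.92 without sensitive tumour 3. With sensitive tumours 1 to 3 only (26.6 ± 13.6, SD, n = 3) Bmp4 was 5.59-fold higher in the resistant tumours, 2.48 ± 0.43 on the log2 scale (SE, adjusted p = 0.0029).

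Bmp7, a ligand also made in epithelium, was read at 2009.7, 1842, 1199 and 3305 normalized counts in sensitive tumours 1 to 4 and at 2465, 5359, 3497 and 1822 in resistant tumours 1 to 4. Resistant tumour 2 was the highest, and resistant tumour 4 lay inside the sensitive range. Its log2 fold change was 0.63 ± 0.38 (SE, adjusted p = 0.31) over all tumours. With sensitive tumours 1 to 3 only it was 0.88 ± 0.35 (SE, adjusted p = 0.076), and Bmp7 passed with DESeq2 (adjusted p = 0.027) and without resistant tumour 4 (adjusted p = 0.023).

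Bmp2, the ligand closest in sequence to Bmp4, was read at 101, 117, 101 and 419 in the sensitive and at 93.6, 238, 189 and 171 in the resistant tumours. Sensitive tumour 4 was again the highest of all, and resistant tumour 1 the lowest. The log2 fold change of Bmp2 was 0.13 ± 0.49 (SE, adjusted p = 0.88) over all tumours, with negative values under edgeR (-0.11) and DESeq2 (-0.10). Compared with sensitive tumours 1 to 3 it was 0.62 ± 0.31 (SE, adjusted p = 0.14), and it passed only when resistant tumour 1 was left out (0.89, adjusted p = 0.017).

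Bmpr1a, the type I receptor through which Bmp2 and Bmp4 signal in skin, was read at 3557, 3847, 4181 and 3124 in the sensitive and 3643, 3679.6, 2986 and 4629.8 in the resistant tumours, with full overlap of the groups. The log2 fold change was 0.01 ± 0.17 (SE, adjusted p = 0.97), with a 95% confidence interval from -0.38 to 0.41.

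Grem1, which binds and sequesters Bmp2, Bmp4 and Bmp7, was read at 196, 359, 333 and 829 in sensitive tumours 1 to 4. In resistant tumours 1 to 4 it was 975, 665, 698 and 764. Sensitive tumour 4 lay inside the resistant range, and the other 3 sensitive tumours lay below it. The log2 fold change was 1.04 ± 0.38 (SE, adjusted p = 0.16) over all tumours and 1.42 ± 0.24 (SE, adjusted p = 0.0025), or 2.68-fold, against sensitive tumours 1 to 3. Grem1 is known in skin from stromal fibroblasts, and the sum of 8 fibroblast markers, none at 0, ranged from 68634 to 140248 for sensitive tumours 1 to 3 and from 79594 to 121905 for the resistant tumours, with 97462 for sensitive tumour 4. Of these markers 1 was higher and 3 were lower against sensitive tumours 1 to 3, beside 20.6% and 19.4% of all genes. The part of fibroblasts in the Grem1 difference was not tested.

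Bambi, the decoy receptor, was read at 43.7, 57.9, 39.7 and 159 in the sensitive and at 87.4, 138, 138 and 131 in the resistant tumours. All resistant tumours lay above sensitive tumours 1 to 3 and below sensitive tumour 4. Its log2 fold change was 0.93 ± 0.43 (SE, adjusted p = 0.22) over all tumours. Bambi was 2.58-fold higher than in sensitive tumours 1 to 3, 1.37 ± 0.26 on the log2 scale (SE, adjusted p = 0.0042).

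Smad6, the inhibitory Smad that acts mainly on BMP receptors, was the only one of the 10 genes with a negative fold change over all tumours. Its values were 92.1, 89.0, 82.8 and 38.5 in the sensitive and 27.1, 70.4, 80.9 and 25.8 in the resistant tumours. Resistant tumours 1 and 4 and sensitive tumour 4 were low, and resistant tumours 2 and 3 sat just under sensitive tumours 1 to 3. The log2 fold change was -0.66 ± 0.48 (SE, adjusted p = 0.38), and -0.96 ± 0.44 (SE, adjusted p = 0.11) against sensitive tumours 1 to 3.

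Id1, a gene that BMP Smads induce directly, was read at 238, 291, 364 and 476 in the sensitive and at 477, 1064, 582 and 401 in the resistant tumours. Resistant tumour 2 was the highest, and resistant tumour 4 lay below sensitive tumour 4 and above the other sensitive tumours. The log2 fold change was 0.82 ± 0.33 (SE, adjusted p = 0.18) over all tumours. Id1 was 2.00-fold higher than in sensitive tumours 1 to 3, 0.998 ± 0.324 on the log2 scale (SE, adjusted p = 0.038). This call was lost without sensitive tumour 1 (adjusted p = 0.13), 2 (adjusted p = 0.11) or 3 (adjusted p = 0.05) or resistant tumour 3 (adjusted p = 0.072).

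Id3 was read at 379, 397, 426 and 499 in the sensitive and at 437, 944, 819 and 443 in the resistant tumours. Resistant tumours 2 and 3 were above every sensitive tumour, and resistant tumours 1 and 4 were inside the sensitive range. Its log2 fold change was 0.56 ± 0.28 (SE, adjusted p = 0.24), and 0.64 ± 0.29 (SE, adjusted p = 0.11) against sensitive tumours 1 to 3, although those groups did not overlap. Id2 was read at 197, 359, 323 and 297 in the sensitive and 283, 483, 281 and 257 in the resistant tumours, where only resistant tumour 2 exceeded the sensitive range. The log2 fold change of Id2 was 0.14 ± 0.27 (SE, adjusted p = 0.76), with a 95% confidence interval from -0.47 to 0.74.

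Resistant tumour 2 held the highest value of the resistant group for Bmp7, Id1, Id2 and Id3, and for Bmp2. Against sensitive tumours 1 to 3, 6 of the 10 genes had groups that did not overlap, Bmp4, Grem1, Bambi, Id1 and Id3 upwards and Smad6 downwards, beside 47.6% of all genes tested.

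Marker sums of basal keratinocytes, endothelium and melanocytes separated the resistant tumours from sensitive tumours 1 to 3, while macrophage and T-cell sums overlapped. In that comparison 20.6% of all genes were higher and 19.4% lower. The 8 basal keratinocyte markers, all detected, summed to 161524 to 235011 for sensitive tumours 1 to 3, 89244 for sensitive tumour 4 and 35337 to 96974 for the resistant tumours, and 5 of 8 were lower against sensitive tumours 1 to 3. The 8 endothelial markers, none at 0, summed to 1893 to 2033, 2748 and 2115 to 4273 in the same order, with 4 of 8 higher. The 8 macrophage markers, none at 0, summed to 12518 to 23845, 14896 and 7531 to 84369, with none passing with limma. In the comparison of all 8 tumours, 1 of 8 had an unadjusted p under 0.05, beside 3789 of 15076 genes. Among 7 melanocyte markers 3 of the 5 tested were lower, with Tyrp1 at 0 in the resistant tumours, and the sums were 833 to 946, 419 and 399 to 558. Of 7 T-cell markers, 1 of the 3 tested was higher, with Cd3g at 0 in the resistant tumours, and the sums were 170.4 to 275, 256 and 99.9 to 460. The part of these cell types in the values of the 10 genes was not tested.

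In ASZ001 cells 9 of the 10 genes were measurable. CCG-1423 lowered 7 of them, Bmp2, Bambi, Id3, Id2, Id1, Smad6 and Bmpr1a, and raised 2, Bmp4 and Bmp7. Passing as such was common, since 85.3% of 12775 genes passed, 42.8% higher and 42.6% lower. By size, 5 of the 9 fell and passed with at least a 2-fold change, which 15.3% of all genes did, and 2 rose as far, which 11.7% of all genes did. The median log2 fold change of the 9 was -1.35, against 0.00 over all genes. With vismodegib 2 of the 9 passed, Bmp2 upwards and Bmp4 downwards.

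**Figure D2:**
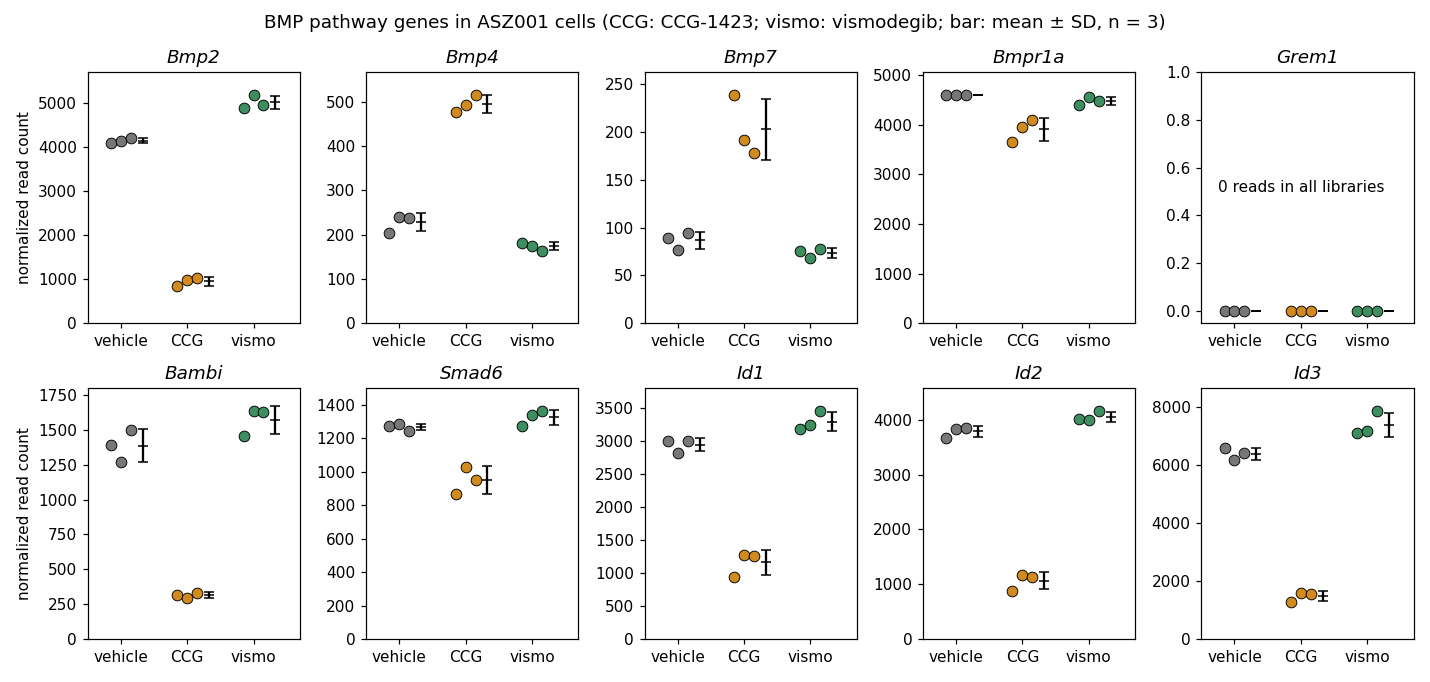
Normalized read count (y axis, linear) of each of the 10 genes in ASZ001 cells given vehicle (grey), CCG-1423 (orange) or vismodegib (green), 1 point per library, with a bar for mean ± SD over 3 libraries. The CCG-1423 libraries lie apart from both other groups in all 9 measurable genes, above them for Bmp4 and Bmp7 and below them for the other 7.

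Bmp2 was read at 4098, 4146 and 4225 normalized counts with vehicle and at 838, 981 and 1028 with CCG-1423. Its mean went from 4156 ± 64.1 to 949 ± 99.0 (SD, n = 3 each), 4.39-fold lower, and the log2 fold change was -2.13 ± 0.06 (SE, adjusted p = 1.2e-14). Only 490 of 12775 genes had a lower fold change than Bmp2. With vismodegib Bmp2 was read at 4897, 5199 and 4970.4, all above vehicle, a rise of 1.21-fold or 0.27 ± 0.06 on the log2 scale (SE, adjusted p = 0.0093). The rise missed the threshold without vismodegib library 2 (adjusted p = 0.063).

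Bmp4 moved the opposite way. It was read at 204, 241 and 238 with vehicle, at 476, 492 and 516 with CCG-1423, and at 181, 175 and 164 with vismodegib, with no overlap among the 3 groups. CCG-1423 raised it 2.17-fold, 1.12 ± 0.08 on the log2 scale (SE, adjusted p = 3.6e-09). With vismodegib it was 1.31-fold lower, a log2 fold change of -0.39 ± 0.08 (SE, adjusted p = 0.012). That fall missed the threshold without vehicle library 2 (adjusted p = 0.075), vehicle library 3 (adjusted p = 0.066) or vismodegib library 3 (adjusted p = 0.072).

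Bmp7 was read at 89.0, 76.6 and 93.9 with vehicle and at 239, 191 and 178 with CCG-1423, 2.32-fold higher with a log2 fold change of 1.21 ± 0.13 (SE, adjusted p = 4.1e-07). CCG-1423 library 1 was the highest. With vismodegib Bmp7 was 76.0, 67.7 and 77.7, overlapping vehicle, and the log2 fold change was -0.22 ± 0.13 (SE, adjusted p = 0.41). The 95% confidence interval of that difference ran from -0.51 to 0.06.

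Bmpr1a was nearly constant with vehicle, at 4593, 4605 and 4607, and was 3659, 3953 and 4107 with CCG-1423. The fall was small, 1.18-fold, with a log2 fold change of -0.24 ± 0.04 (SE, adjusted p = 2.3e-05). With vismodegib the values were 4409, 4565 and 4477, and the interval of the log2 difference was -0.12 to 0.04 (adjusted p = 0.66).

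Grem1 had 0 reads in all 9 cell libraries, so any level was at most the 2.45 to 3.40 normalized counts that a count of 0 allows. The same libraries had 0 reads of the fibroblast marker Lum, and Dpt had 0 in the vehicle and vismodegib libraries. Other fibroblast markers were read: with vehicle the means were 79.1 for Pdgfra, 64.4 for Dcn, 32.5 for Col1a2 and 11.7 for Col3a1. Col1a1 and Pdgfrb had vehicle means under 10. The sum of 8 fibroblast markers was 176 to 205 with vehicle, 97.8 to 127 with CCG-1423 and 169 to 185 with vismodegib. All 8 basal keratinocyte markers were detected in ASZ001.

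Bambi was read at 1393, 1266 and 1497 with vehicle and at 321, 294 and 334 with CCG-1423. It was 4.37-fold lower, with a log2 fold change of -2.13 ± 0.07 (SE, adjusted p = 1.0e-13) that 498 genes undercut. With vismodegib it was 1455, 1633 and 1623, overlapping vehicle (log2 difference 0.18, 95% confidence interval 0.04 to 0.33, adjusted p = 0.15).

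Smad6 was read at 1273, 1285 and 1246 with vehicle and at 869, 1031 and 954 with CCG-1423. The groups did not overlap, and the fall was 1.33-fold, with a log2 fold change of -0.42 ± 0.05 (SE, adjusted p = 3.1e-06). Vismodegib libraries read 1277, 1338 and 1364, and the interval of the log2 difference was -0.05 to 0.18 (adjusted p = 0.58).

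Id1 was read at 3011, 2832 and 3009 with vehicle and at 946, 1284 and 1267 with CCG-1423, a mean of 2951 ± 103 against 1166 ± 190.3 (SD, n = 3 each). This is 2.55-fold lower, with a log2 fold change of -1.35 ± 0.08 (SE, adjusted p = 3.5e-10). With vismodegib Id1 was 3187, 3249.8 and 3462, all above vehicle, and the log2 difference of 0.16 had an interval from -0.02 to 0.34 (adjusted p = 0.33).

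Id2 was read at 3667, 3836 and 3850.3 with vehicle and at 886, 1178 and 1134 with CCG-1423. It fell 3.57-fold, with a log2 fold change of -1.84 ± 0.08 (SE, adjusted p = 1.8e-12). Vismodegib libraries read 4005, 3991 and 4157, with an interval of the log2 difference from -0.06 to 0.26 (adjusted p = 0.53).

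Id3 was read at 6589, 6173 and 6423 with vehicle and at 1293, 1612 and 1559 with CCG-1423. The fall was 4.31-fold, with a log2 fold change of -2.11 ± 0.06 (SE, adjusted p = 6.1e-14). With vismodegib Id3 was 7129, 7169.7 and 7878, above all vehicle libraries, and the log2 difference of 0.21 (95% confidence interval 0.07 to 0.35) gave an adjusted p = 0.079. It passed with edgeR (adjusted p = 0.037), DESeq2 (adjusted p = 0.011) and when only vehicle and vismodegib libraries were fitted (adjusted p = 0.00015). In that 2-group fit Id1 (adjusted p = 0.0022), Id2 (adjusted p = 0.021) and Bambi (adjusted p = 0.023) passed too, so that 5 of the 9 genes were higher with vismodegib. That fit called more genes throughout, 769 higher and 952 lower of 12440 genes against 202 and 501 of 12775 in the fit of all 9 libraries.

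For vismodegib, 1 gene higher and 1 lower of 9 stand beside 5.50% of all genes called, 1.58% higher and 3.92% lower. The median log2 fold change of the 9 was 0.10, against 0.01 over all genes. Both comparisons used the same 3 vehicle libraries. In order of level, Bmp2 and Bmp4 differed between all 3 groups, whereas vehicle and vismodegib did not differ past the threshold for the other 7.

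Compared directly, CCG-1423 and vismodegib libraries differed in all 9 genes, where 84.8% of all genes did. Doses and times are not given, so this sets the 2 labelled treatments side by side and says nothing of potency. Bmp2 was 5.30-fold lower with CCG-1423 than with vismodegib, a log2 difference of -2.41 ± 0.06 (SE, adjusted p = 3.0e-15). Id3 was 4.98-fold and Bambi 4.95-fold lower, Id2 3.83-fold and Id1 2.85-fold lower. Bmp4 was 2.85-fold and Bmp7 2.71-fold higher. Smad6 was 1.40-fold and Bmpr1a 1.15-fold lower.

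**Figure D3:**
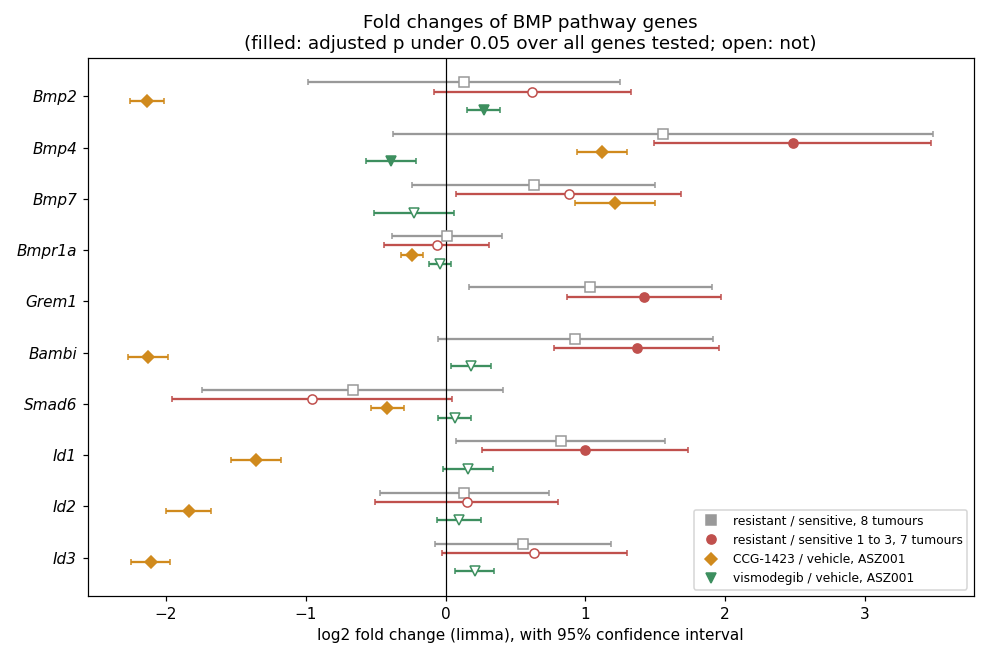
Log2 fold change (x axis) with its 95% confidence interval for each of the 10 genes in 4 comparisons, filled where the adjusted p was under 0.05. CCG-1423 points (orange) lie between -2.13 and -1.35 for Bmp2, Bambi and the 3 Id genes and above 1 for Bmp4 and Bmp7, while vismodegib points (green) lie between -0.39 and 0.27. Grem1 has tumour values only.

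The basal keratinocyte markers also fell with CCG-1423. Their sum was 1379480 to 1409940 with vehicle, 311587 to 325570 with CCG-1423 and 1355180 to 1382920 with vismodegib. Of these markers 8 of 8 were lower with CCG-1423, where 42.8% of all genes were higher and 42.6% lower. Of the markers of other cells that were tested, 1 was higher and 3 lower of 5 for fibroblasts, and 2 were lower of 3 for endothelium. The higher fibroblast marker, Col1a1 (means 5.35 with vehicle and 22.5 with CCG-1423), reached 10 only with CCG-1423 and was tested only through those libraries. Endothelial marker sums were 929 to 940 with vehicle and 302 to 362 with CCG-1423. Most of them was Pecam1, at means of 882 and 294, while Kdr, Cldn5 and Tie1 were at 0 in both. Macrophage marker sums were 413 to 461 with vehicle and 778 to 942 with CCG-1423, with C1qa and C1qb at 0 in both. Of 2 tested, Cd68, which made up nearly all of that sum, rose from 421 ± 25.4 to 856 ± 81.0 (SD, n = 3 each), and Csf1r fell from 19.3 ± 0.237 to 3.11 ± 1.08 (SD, n = 3 each). T-cell marker sums were 3.19 to 4.90 with vehicle and 32.4 to 40.8 with CCG-1423, with Cd3d, Cd3g, Cd2 and Cd8a at 0 in both. Lck, the 1 marker tested, was read at 3.20 ± 0.992 with vehicle and 35.2 ± 4.50 with CCG-1423 (SD, n = 3 each). Lck reached 10 only in the CCG-1423 libraries, so it could be tested only because it was high there. Melanocyte marker sums were 2040.4 to 2187 and 1520.2 to 1692, with Dct and Sox10 at 0 in both and 1 lower of 3. Their part in the BMP values was not tested.

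The wider pathway was described by counts, with no test of the lists. Between all tumours 0 of 50 tested pathway genes passed with limma, 17 had an unadjusted p under 0.05, edgeR called 0, and DESeq2 called 2 higher and 3 lower. Over all 15076 genes, 3789 had an unadjusted p under 0.05, and DESeq2 called 521 higher and 1117 lower. Against sensitive tumours 1 to 3, 9 of 51 were higher and 9 lower, beside 20.6% and 19.4% of all genes, with a median log2 fold change of -0.09 against 0.02 over all genes. With CCG-1423, 18 of 42 were higher and 18 lower, beside 42.8% and 42.6% of all genes, and with vismodegib 3 were higher and 5 lower, beside 1.58% and 3.92%.

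Among other ligands, Bmp5 and Bmp6 moved in opposite directions between resistant tumours and sensitive tumours 1 to 3. Bmp5, known for its role in skeletal and ear development, had 0 reads in sensitive tumours 1 to 3, was 199 in sensitive tumour 4, and was 783, 7.41, 315 and 32.8 in the resistant tumours. Its resistant mean was at least 57.3-fold higher than the 3-read floor of the shallowest of those sensitive libraries, and at least 23.9-fold higher without resistant tumour 1. Bmp5 could be tested only through the libraries where it was read. Bmp6, a ligand of suprabasal epidermis, ranged from 140.4 to 279.8 for sensitive tumours 1 to 3 and from 11.2 to 45.5 for the resistant tumours, with 35.5 for sensitive tumour 4, a log2 fold change of -3.07 ± 0.47 (SE, adjusted p = 0.0017). With CCG-1423 Bmp6 rose from 9.23 ± 3.06 to 45.3 ± 6.58 (SD, n = 3 each), 2.22 ± 0.31 on the log2 scale (SE, adjusted p = 6.0e-06).

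Of 14 other receptors, co-receptors and Smads, 1 was higher and 2 were lower against sensitive tumours 1 to 3, beside 20.6% and 19.4% of all genes. Bmpr1b, the second BMP type I receptor, was higher by 2.61 ± 0.40 on the log2 scale (SE, adjusted p = 0.0017), at 67.9 to 220.4 against 689 to 1176, with sensitive tumour 4 at 690.2. The type II receptor Acvr2a was lower (-1.22 ± 0.30, SE, adjusted p = 0.012), and lost the threshold without sensitive tumour 2 (adjusted p = 0.052). Smad9, a BMP receptor Smad, was lower (-2.69 ± 0.76, SE, adjusted p = 0.023) and lost it without sensitive tumour 1, 2 or 3 (adjusted p = 0.06, 0.074 and 0.064), and its log2 value was -1.95 without resistant tumour 1. Sensitive tumour 4 lay inside the resistant range for Acvr2a (965) and Smad9 (16.2). With CCG-1423, 8 of 13 receptors, co-receptors and Smads were higher and 2 lower, beside 42.8% and 42.6% of all genes. The common Smad, Smad4, rose from 2071 ± 70.3 to 4360.1 ± 161 (SD, n = 3 each), 1.07 ± 0.04 on the log2 scale (SE, adjusted p = 3.2e-13). Smad1 (0.61), Smad5 (0.54), the co-receptor Rgmb (0.95) and its partner Neo1 (0.58) also rose on the log2 scale, in the same libraries in which Id1, Id2 and Id3 fell. With vismodegib the type II receptor Bmpr2 (-0.15) and the co-receptor Rgma (-0.23) were lower, and Bmpr2 missed the threshold without vehicle library 2 or 3 or vismodegib library 2 or 3 (adjusted p = 0.061 to 0.092).

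Of 17 tested antagonists and inhibitors, 3 were higher and 2 lower against sensitive tumours 1 to 3, beside 20.6% and 19.4% of all genes. Fstl1, a secreted follistatin-like BMP binder, rose from 3829.5 to 5476 up to 15406 to 23129, a log2 fold change of 2.12 ± 0.19 (SE, adjusted p = 0.0002), with sensitive tumour 4 at 15318. Sostdc1, a secreted BMP and Wnt antagonist of the follicle, was higher by 1.91 ± 0.37 (SE, adjusted p = 0.0047) and Smad7 by 1.65 ± 0.25 (SE, adjusted p = 0.0014). The Smad repressor Ski (-1.02) and the secreted antagonist Nbl1 (-1.59) were lower. Sensitive tumour 4 lay inside the resistant range for Sostdc1 (5519), Smad7 (711), Ski (1992) and Nbl1 (176). With CCG-1423, 4 of 15 were higher and 9 lower, beside 42.8% and 42.6% of all genes. The widest change was in Sostdc1, from 3402, 3434 and 3410.1 with vehicle to 135, 129.8 and 128. This was -4.69 ± 0.04 on the log2 scale (SE, adjusted p = 2.6e-19), and 19 of 12775 genes had a lower fold change. The secreted Fst (-0.93) and Twsg1 (-0.91) fell, the ubiquitin ligases of receptor Smads Smurf1 (0.99) and Smurf2 (0.58) rose, and Smad7 fell by 0.20 on the log2 scale. Nog, which traps ligands, was higher with CCG-1423 (0.48, adjusted p = 0.008). With vismodegib Fst (-0.31) and Sostdc1 (-0.20) were lower, and Sostdc1 missed the threshold without any single library other than vismodegib library 2 (adjusted p = 0.062 to 0.09). Nog was higher (0.56, adjusted p = 0.044), and missed it with edgeR (adjusted p = 0.052), DESeq2 (adjusted p = 0.12) and without any 1 library (adjusted p = 0.068 to 0.16).

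**Figure D4:**
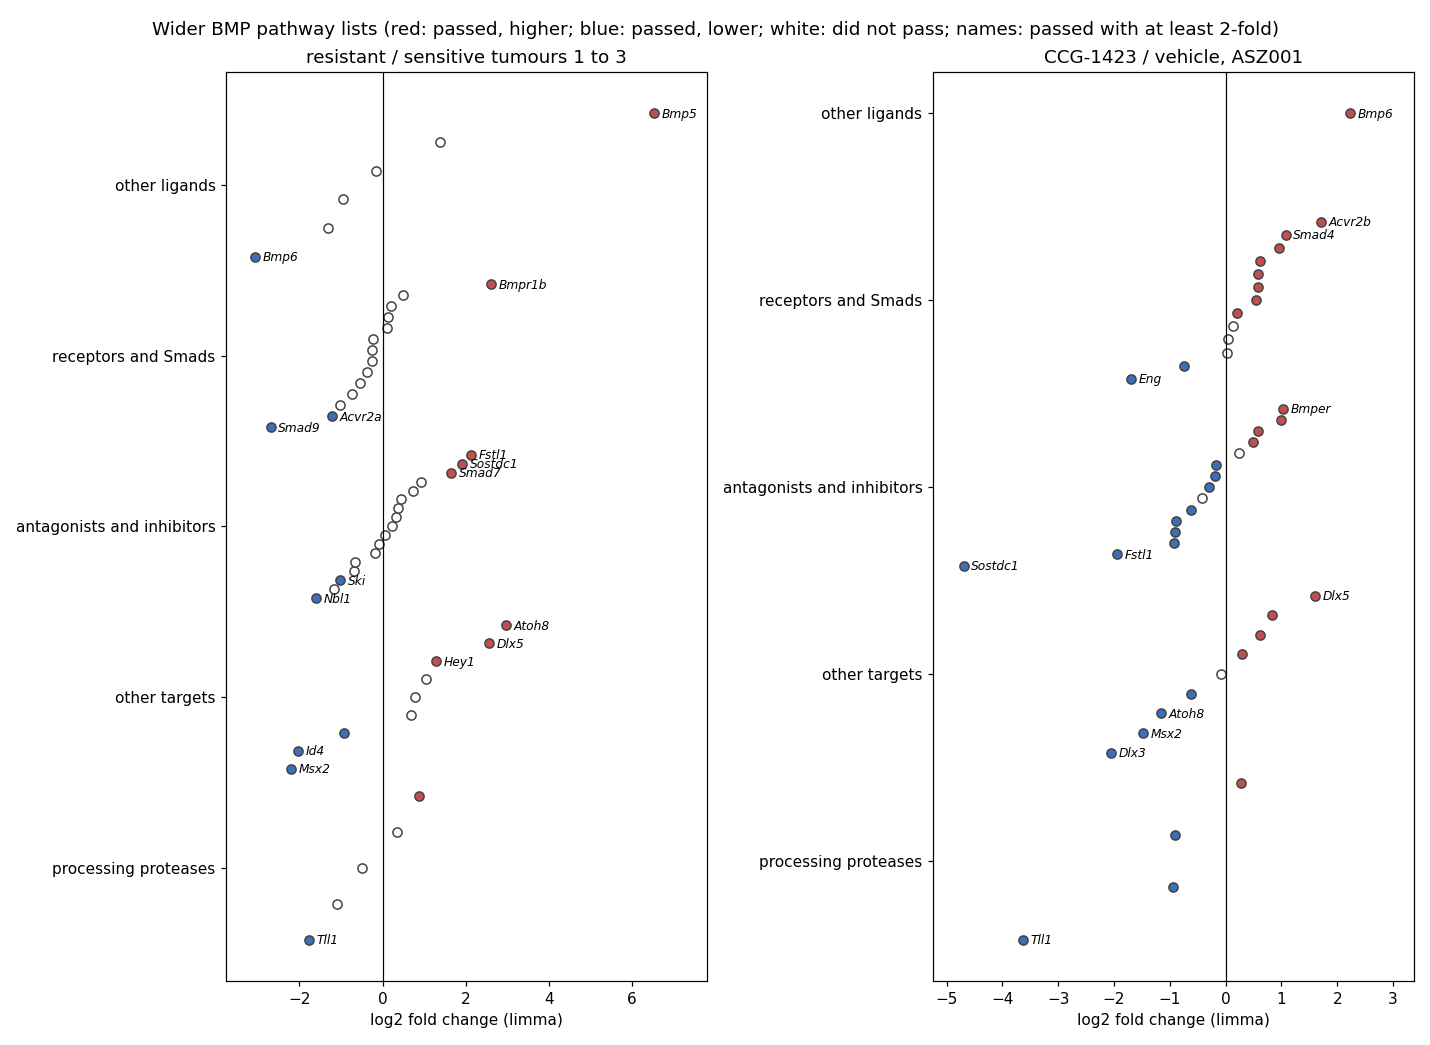
Log2 fold change (x axis) of the wider pathway genes, 1 point per gene, grouped by role on the y axis, for resistant tumours against sensitive tumours 1 to 3 (left) and CCG-1423 against vehicle (right). Red points passed higher, blue points passed lower and white points did not pass, and Sostdc1 lies on opposite sides in the panels, at 1.91 and -4.69.

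Of 9 other targets, 3 were higher and 3 lower against sensitive tumours 1 to 3, beside 20.6% and 19.4% of all genes. The transcription factors Atoh8 (2.97 ± 0.47, SE, adjusted p = 0.0019) and Dlx5 (2.57 ± 0.62, SE, adjusted p = 0.012) were higher, and Id4 (-2.02 ± 0.42, SE, adjusted p = 0.0059), Gata3 (-0.92 ± 0.14, SE, adjusted p = 0.0016) and Msx2 (-2.20 ± 0.69, SE, adjusted p = 0.033) were lower. Sensitive tumour 4 lay inside the resistant range for Atoh8 (91.2), Dlx5 (151), Id4 (28.4), Gata3 (418) and Msx2 (86.2). The Msx2 call was lost with edgeR (adjusted p = 0.071) and without sensitive tumour 1 or 2 or resistant tumour 1, 3 or 4 (adjusted p = 0.053 to 0.11). Without 1 tumour the log2 value of Dlx5 reached 1.82 (sensitive tumour 1) or 3.26 (sensitive tumour 3), and that of Msx2 -2.80 (resistant tumour 2). Id4 lay below sensitive tumours 1 to 3 in the resistant tumours (25.2 to 53.7 against 81.7 to 216), where Id1 lay above them. With CCG-1423, 4 of 9 were higher and 4 lower, beside 42.8% and 42.6% of all genes. Dlx3, a homeobox gene of epidermal differentiation, fell from 3366 ± 13.5 to 809 ± 80.2 (SD, n = 3 each), -2.06 ± 0.06 on the log2 scale (SE, adjusted p = 3.5e-14). Msx2 (-1.48) and Id4 (-0.62) fell with it, and Dlx5 (1.60), Gata3 (0.83) and Runx2 (0.61) rose. With vismodegib Id4 was lower (-0.83 ± 0.11, SE, adjusted p = 0.00034), from 169, 154 and 147 to 85.0, 96.7 and 81.7, while Msx2 (0.37) and Dlx3 (0.23) were higher. The Dlx3 call missed the threshold without any 1 library other than vismodegib library 1 (adjusted p = 0.1 to 0.21) and with quantile normalization (adjusted p = 0.051).

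Among 5 proteases that process ligands or cut the antagonist Chrd, Bmp1 was higher (0.89 ± 0.14, SE, adjusted p = 0.002) and its relative Tll1 lower (-1.77 ± 0.33, SE, adjusted p = 0.004) against sensitive tumours 1 to 3. Sensitive tumour 4 lay inside the resistant range for Bmp1 (2491) and Tll1 (441). With CCG-1423 Bmp1 fell from 8468 ± 50.2 to 4383 ± 45.3 (SD, n = 3 each), and Pcsk6 (-0.91) and Tll1 fell as well. Tll1 went from 24.5, 25.5 and 31.7 to 2.23, 2.60 and 0, each at or below the floor of 3 reads. The convertase Furin rose by 0.28 on the log2 scale.

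The genes nearest to Id1 were found by the root mean square difference of log2 values, each centred over the libraries of a table. This is a description, with no test. Over the 8 tumours they were Nfe2l2 (0.15), Gstp1 (0.16), Slit3 (0.20), Tmem120a (0.20) and Runx2 (0.20), and Id3 ranked 29th at 0.28. Over the 9 cell libraries they were Pts (0.055), Coq4 (0.082), B9d1 (0.084), Arl4a (0.088) and Zcchc17 (0.089), and Id2 ranked 583rd at 0.22. The 2 sets of 5 share no gene.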

How the data were processed

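RNA was measured in 8 tumour and 9 cell libraries. The signal values are normalized read counts per gene, deposited by the authors in 2 separately scaled tables. The submitters' processing notes list TopHat, DESeq and mm9 without role or version. Counter, annotation and strandedness are not given in the labels. Each table's values became whole reads (100%, tolerance 0.01 read) after division by 1 step per library. Of 24015 symbols per table, 22709 (tumours) and 22683 (cells) occur in the reference names.

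Tests used limma 3.58.1 (R 4.3.3) with a variance trend and empirical Bayes moderation on log2(normalized count + 1), for genes at 10 or more in at least 4 tumour or 3 cell libraries (3 without sensitive tumour 4). P-values were 2-sided and adjusted over all genes tested, with a threshold of 0.05. The cell fit held all 9 libraries. The fit was also run on simulated data with few changed genes and no deviating library. That run does not bear on sensitive tumour 4 or on CCG-1423, where most genes passed. Alternatives were pseudocounts, filters, scalings, edgeR 4.0.16 and DESeq2 1.42.0 on the recovered reads, a replicate block, only the 2 groups compared, and leaving out each library.

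The 10 genes were read by symbol, and up to 5 passing pathway genes of smallest p per list, plus 10 preset ones, could be named. Members and lists were chosen with earlier results of these data known. The chi-square over its degrees of freedom between replicates was 13.5 to 183 for tumours and 1.84 to 40.9 for cells, so none was a repeat deposit. The 8 exome samples were not analysed here.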

Additional observations from a re-analysis of the deposited data

Results flagged for a closer look

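Among the 20 groups of 4 tumours (10 genes in 2 groups), 5 had a sample whose gap to the nearest other exceeded the share of the range that Dixon's test sets at 95%. Chance alone flags about 1 in 20 groups. In sensitive tumour 4, Bmp2 was 419 normalized counts, against 101 to 117 in the other sensitive tumours. In the same tumour Bmp4 was 322, against 11.6 to 38.1, and Bambi was 159, against 39.7 to 57.9. In resistant tumour 2, Id2 was 483, against 257 to 283 in the other resistant tumours. In resistant tumour 1, Bambi was 87.4, against 131 to 138. Cell groups hold 3 libraries each and were not examined in this way.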

How the results depend on the processing

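Between all tumours, the count of the 10 BMP genes that were higher ranged from 0 to 4 when 1 library was left out, and was 4 only without sensitive tumour 4. Of the wider pathway genes, 0 to 9 were higher and 0 to 9 lower in the same settings, and DESeq2 called 2 higher and 3 lower. Over all genes 17 passed with limma, 0 with edgeR and 521 higher and 1117 lower with DESeq2.

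Against sensitive tumours 1 to 3, 3 to 5 of the 10 were higher when 1 library was left out and 0 were lower. A replicate block gave 6 higher (main 4), adding Bmp7 (adjusted p = 0.028) and Id3 (adjusted p = 0.045). Resistant tumour 4 had no same-numbered partner there, so the block took it out of the contrast. The Bmp7 log2 value was 1.13 both with the block and without resistant tumour 4, so the block was no separate check. Same-numbered samples did not deviate together (correlations -0.146 to 0.122 in the tumours, -0.043 to 0.037 in the cells). With 4 tumours or 3 cell libraries per group, these correlations cannot exclude that the numbers pair the samples. The Msx2 call was lost with the block (adjusted p = 0.073), at the same log2 value of -1.85 as without resistant tumour 4. The Nog call with vismodegib was lost with the block too (adjusted p = 0.069).

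The sign turned for fold changes near 0. For Bmp2 between all tumours it was -0.11 with edgeR, -0.10 with DESeq2 and ranged from -0.059 to 0.62 when 1 library was left out. For Bmpr1a it was -0.092 with quantile normalization and ranged from -0.096 to 0.11, and against sensitive tumours 1 to 3 from -0.17 to 0.039. For Id2 the ranges were -0.069 to 0.24 and, against sensitive tumours 1 to 3, -0.11 to 0.32.

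With vismodegib, edgeR and DESeq2 each called 2 of the 9 BMP genes higher (main 1) and the fit of only the 2 groups called 5, while over all genes that fit called 769 of 12440 higher against 202 of 12775. Leaving out 1 library gave 0 to 1 higher and 0 to 1 lower. For the wider pathway the 2-group fit called 8 lower (main 5), and leaving out 1 library gave 1 to 2 higher and 3 to 4 lower. The cause was not tested. Every call of the 9 genes with CCG-1423 kept its direction and its side of the threshold in all alternatives run. No scaling moved the median over all genes by more than 0.1 on the log2 scale. Each scaling sets the typical gene near 0, so this cannot show a shift shared by most genes. With CCG-1423, where 85.3% of genes passed, the small changes of Bmpr1a and Smad6 rest on that scaling.

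At 8111252 to 11125956 reads, sensitive tumours 1 to 3 were the shallowest, and Bmp4 in sensitive tumour 3, at 11.6 normalized counts, was near the 3-read limit of 4.97.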
